A study of Homo sapiens with 18 samples.

Results

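TG003 was compared with DMSO in KMS12-BM, on 6 of the 18 arrays of a study of 2 myeloma-type cell lines. The arrays were chosen by their labels: 3 of KMS12-BM cells given TG003 at 0.4 mM for 24 h and 3 of KMS12-BM cells given DMSO, labelled untreated. All 22465 genes with a named probe set were included. KMS12-BM is an established human multiple myeloma line that carries a translocation activating CCND1, and it was grown with 20% serum. The other arrays hold KMS12-BM with amiloride at 0.1 mM and JJN3, a plasma cell leukemia line grown with 10% serum, with DMSO, amiloride at 0.4 mM or TG003 at 0.4 mM, 3 arrays each. Each line stands for 1 tumour. Whether the 3 arrays of a group are of different cultures is not in the labels, and if they are not, the p-values rest on technical spread.

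TG003 is a benzothiazole inhibitor of CLK family kinases, which phosphorylate the serine- and arginine-rich (SR) proteins that direct the spliceosome to exons. It is also known to inhibit casein kinase 1. CLK transcripts are themselves spliced under CLK control, and inhibition is known to raise the fully spliced, productive form. Myeloma cells are tumour counterparts of plasma cells, which secrete antibody through a large endoplasmic reticulum (ER) kept up by the transcription factors XBP1, IRF4 and PRDM1 and which depend on protein folding and degradation to survive.

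Values are log2 intensities that the authors normalized with RMA, for 22465 genes with 1 probe set each. One value stands for all isoforms, so a change can be in the amount of an RNA or in which exons it holds. A change is the mean with TG003 minus the mean with DMSO, given ± SE from limma, with 3 arrays in each group. A gene is said to have risen or fallen when its Benjamini-Hochberg adjusted p was under 0.05. Background is judged against 6.99, the 95th percentile of 92 ERCC control probe sets. The gene-level correlation between arrays of the same group was 0.997 to 0.998.

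The cells matched their label in CCND1, MAF and CCND2. CCND1, the cyclin driven by the translocation, stood at 15.07, 14.85 and 14.70 with DMSO and 14.84, 14.54 and 14.47 with TG003, against a mean of 6.08 in JJN3 with DMSO, and its change of -0.26 ± 0.16 did not pass the test (adjusted p = 0.394). MAF and CCND2, which mark JJN3, were below the background reference in KMS12-BM, with DMSO means of 4.84 and 5.98. ITGB7, also listed as a JJN3 marker, lay above that reference in KMS12-BM with DMSO (change -1.80), so it did not mark JJN3 alone. Of 12 plasma cell markers, 9 lay above the reference with DMSO and 8 with TG003, the one lost being DERL3. SDC1, the syndecan used to identify plasma cells, lay below it at 5.69, as did SLAMF7 at 4.10 and the joining chain gene JCHAIN at 5.50. No T and NK cell, stromal or erythroid marker of the 7, 7 and 4 measured lay above it in either group. Of 8 myeloid markers only CD68, a lysosomal membrane protein, did so, and only with DMSO.

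TG003 changed 3330 of 22465 genes, 14.8% of those tested. Of these, 1865 rose, which is 8.30% of all genes, and 1465 fell, which is 6.52%. The numbers each way were nearly equal after centring each array (1551 and 1501), with a further quantile normalization (1817 and 1814) and without the third DMSO array (1318 and 1310). Of the 7360 genes above the background reference in KMS12-BM, 17.5% rose and 15.4% fell. Most members of the pathway lists are among these, so their counts are to be read against these shares as well as those of all genes. Shares of a list are over all its measured members, including those below the reference, unless said otherwise. Most changes were small: 93 genes rose and 101 fell by at least 1 on the log2 scale, which is a doubling or a halving of the signal. The median size of a called change was 0.47, and the median change over all genes was -0.01. All 3 arrays of one group lay beyond all 3 of the other in 29.4% of all genes and in 3259 of the 3330 called ones. Tested against a change of 1.2-fold instead of 0, 776 genes remained called, 395 higher and 381 lower.

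The genes with the largest falls included surface and signalling proteins of B lineage cells. SEPTIN3, a septin best known from neurons, stood at 11.85, 11.91 and 11.71 with DMSO and 9.37, 9.24 and 9.42 with TG003. No DMSO array came near a TG003 array, and the gene fell by 2.48 ± 0.12 on the log2 scale, a 5.58-fold lower signal (adjusted p = 1.50e-08). CD27, the TNF receptor family member of memory B and plasma cells, was among the brighter of these genes at 14.32, 14.12 and 14.14 with DMSO and 12.43, 11.78 and 12.26 with TG003. It fell by 2.04 ± 0.15 (adjusted p = 5.72e-07), and its groups did not overlap. CSF2RB, the shared receptor subunit for interleukin-3, interleukin-5 and GM-CSF, read 9.78, 9.89 and 9.89 with DMSO and 7.93, 7.74 and 8.03 with TG003. It fell by 1.95 ± 0.09, with the smallest p of all genes (adjusted p = 6.27e-09).

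SLA2, an adaptor that dampens antigen receptor signalling, fell by 2.44 ± 0.17 and lay below the background reference with TG003, at a mean of 6.79. The other large falls were RNASE6 (-2.42), a secreted ribonuclease, ZMYND8 (-2.18), a chromatin reader, ACY3 (-2.04), an aminoacylase, SUCLG2 (-1.94), a subunit of succinyl-CoA synthetase, HES1 (-1.92), a NOTCH target and transcriptional repressor, and ITGB7 (-1.80), an integrin subunit. PLCG2 (-1.79), a phospholipase of antigen receptor signalling, SCFD2 (-1.78), SEPTIN1 (-1.78), CDA (-1.74), which deaminates cytidine, and the 5S ribosomal RNA pseudogene RNA5SP157 (-2.31) completed the 15. RNASE6 and CDA varied most within a group: RNASE6 read 11.13, 9.91 and 9.42 with DMSO and 8.32, 7.33 and 7.55 with TG003, and CDA read 10.73, 11.51 and 11.80 with DMSO and 9.46, 8.90 and 10.46 with TG003. VPS36, a subunit of the ESCRT-II sorting complex, fell by 1.68 ± 0.08 with the second smallest p among the falls.

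Of the 15 largest rises 6 were of noncoding RNAs, and 4 were of genes below the background reference with DMSO. SLC10A5, of the bile acid transporter family, stood at 5.08, 5.20 and 5.19 with DMSO and 6.66, 8.27 and 6.98 with TG003. It lay under the background reference on every DMSO array and above it on 1 TG003 array, and it rose by 2.15 ± 0.30 (adjusted p = 1.33e-04). BEND6, a BEN domain protein, read 6.83, 6.71 and 6.57 with DMSO and 8.45, 9.17 and 8.53 with TG003 and rose by 2.01 ± 0.16. C11orf71, an open reading frame of unknown role, read 9.05, 9.31 and 9.27 with DMSO and 11.15, 11.09 and 11.01 with TG003 and rose by 1.87 ± 0.16, with no overlap between the groups. VAMP4, a SNARE protein of the trans-Golgi network, read 9.29, 9.19 and 9.10 with DMSO and 10.54, 11.51 and 10.78 with TG003, the second TG003 array standing above the other two, and rose by 1.75 ± 0.20.

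PPP1R3E, which targets protein phosphatase 1 to glycogen, rose by 1.76 ± 0.12 (adjusted p = 3.76e-07), and ZNF512 had the same adjusted p. The zinc finger genes ZNF512 (1.70) and ZNF589 (1.60), the acylphosphatase gene ACYP1 (1.56) and NIPSNAP3A (1.55) also rose. The remainder were noncoding: the divergent transcripts ANKRD13C-DT (1.64) and SRP14-DT (1.45), LINC00470 (1.40), the pseudogene FRG1HP (1.40), whose family has near-identical copies, the 5S pseudogene RNA5SP283 (1.60) and MIR4737 (1.93). MIR4737 lies inside HEATR6, whose own probe set rose by 0.42 ± 0.11, and signal from the host RNA cannot be told apart from its own. Outside the 15, MUC20 (1.53), a mucin, RDM1 (1.06), a relative of the recombination protein RAD52, and TPT1-AS1 (1.01) were among the 5 rises of smallest p.

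**Figure D1:**
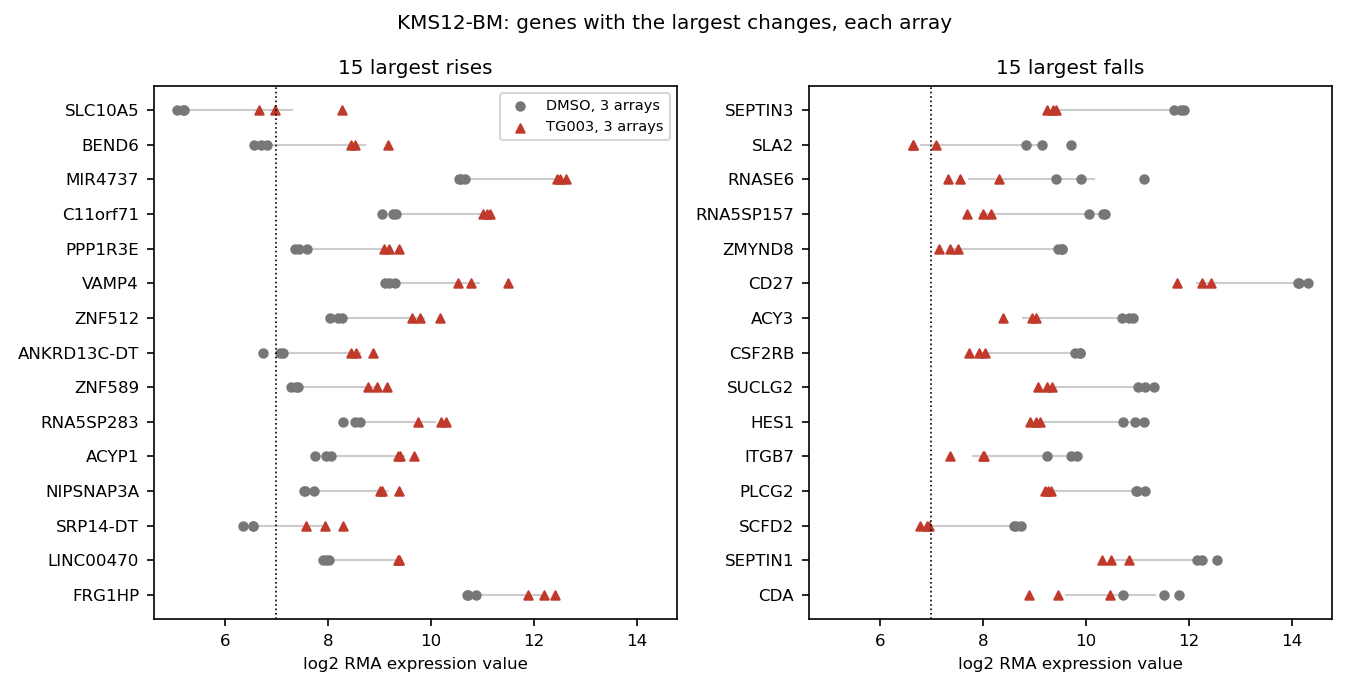
Log2 RMA values of the 15 genes with the largest rises (left) and the 15 with the largest falls (right) in KMS12-BM, on each of the 3 DMSO arrays (grey circles) and 3 TG003 arrays (red triangles), with a grey line joining the group means and a dotted line at the background reference of 6.99. In each of the 30 genes, a condition of their choice, the 3 arrays of one group lie beyond the 3 of the other.

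The 4 CLK genes all rose. CLK1 read 7.78, 7.67 and 7.17 with DMSO and 8.52, 8.70 and 8.50 with TG003 and rose by 1.04 ± 0.16 (adjusted p = 3.21e-04). CLK4, close to background, read 5.93, 5.98 and 5.76 with DMSO and 6.81, 7.27 and 6.86 with TG003 and rose by 1.09 ± 0.13 (adjusted p = 5.40e-05). The groups of both genes were separate, with the lowest TG003 array above the highest DMSO array. CLK3 read 9.58, 9.75 and 9.84 with DMSO and 10.26, 10.47 and 10.33 with TG003 and rose by 0.63 ± 0.09, and CLK2 read 10.16, 10.25 and 10.29 with DMSO and 10.65, 10.71 and 10.73 with TG003 and rose by 0.46 ± 0.10. Those 4 were the rises among 17 CLK, DYRK, SRPK and HIPK kinases, 23.5% against 8.30% of all genes and 17.5% of those above background. The list had 1 fall, the transcriptional kinase HIPK2 (-0.69), a call that was lost in 5 of 13 alternatives. With a replicate block, 5 of the 17 rose and 3 fell.

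Genes of the splicing machinery went both ways. Of 23 SR splicing factors, 6 rose and 2 fell, shares of 26.1% and 8.7% against 8.30% and 6.52% of all genes and 17.5% and 15.4% of those above background. PNISR, an SR-related protein, rose by 0.73 ± 0.12, while SRSF7 (-0.48) and SRSF4 (-0.38), which bind exonic enhancers, fell. RSRP1 (0.87) and SRSF5 (0.45) rose, but lost the call in 2 and 4 of 13 alternatives. Of 56 core spliceosome genes, 11 rose and 7 fell, with a median change of 0.09. These shares, 19.6% and 12.5%, are near those of genes above background. The rises among SR factors numbered 2 without the first DMSO or the second TG003 array and 3 without the third DMSO array.

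The spliceosome genes with the largest changes were ones that fell. PRPF8, the protein at the catalytic centre of the U5 snRNP, read 15.51, 15.54 and 15.46 with DMSO and 14.46, 13.57 and 14.38 with TG003, the second TG003 array being the lowest, and fell by 1.37 ± 0.16 (adjusted p = 4.28e-05). DDX46, a helicase of the U2 snRNP, fell by 1.16 ± 0.15, and U2AF2, which binds the polypyrimidine tract, fell by 0.81 ± 0.10. SF1, which recognises the branch point, rose by 0.68 ± 0.11, and PRPF3 (0.66) and CDC5L (0.60) rose with it. Of 17 hnRNP genes, all above background, 2 fell (11.8%) and 1 rose (5.9%), against 15.4% and 17.5% of all such genes. HNRNPAB (-0.56) and SYNCRIP (-0.41) fell, the latter call being lost in 4 of 13 alternatives. HNRNPR (0.31) rose, a call lost in 7, and the mean of its probe sets gave -0.019.

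Of 16 genes of the exon junction complex and nonsense-mediated decay, 3 rose (18.8%) and 0 fell. Of the 13 above background 3 rose, 23.1% against 17.5% of all genes above it. SMG5, which helps remove phosphate from UPF1, read 9.45, 8.99 and 9.45 with DMSO and 10.34, 10.37 and 10.30 with TG003 and rose by 1.04 ± 0.22. UPF1, the helicase of that pathway, read 9.81, 9.27 and 9.68 with DMSO and 10.59, 10.39 and 10.58 with TG003 and rose by 0.93 ± 0.13, and UPF2, its activator, rose by 0.48 ± 0.11. With a replicate block 5 rose. In 3' end processing, 2 of 18 genes rose and 2 fell, 11.1% each against 17.5% and 15.4% of genes above background. PCF11, a cleavage factor that also terminates transcription, read 10.28, 10.54 and 10.25 with DMSO and 9.13, 8.84 and 8.87 with TG003 and fell by 1.41 ± 0.15 (adjusted p = 1.39e-05), and CSTF3, of the cleavage stimulation factor, rose by 0.57 ± 0.09. Of 21 genes of transcription elongation control, 8 rose (38.1%), LARP7 (0.64) and SUPT4H1 (0.63) among them, and 4 fell (19.0%), AFF1 (-0.73) by the most. The elongation rises numbered 4 without the second TG003 array and 5 without the first or the third DMSO array, and the 3' end falls numbered 1 without the second or the third DMSO or the second TG003 array.

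**Figure D2:**
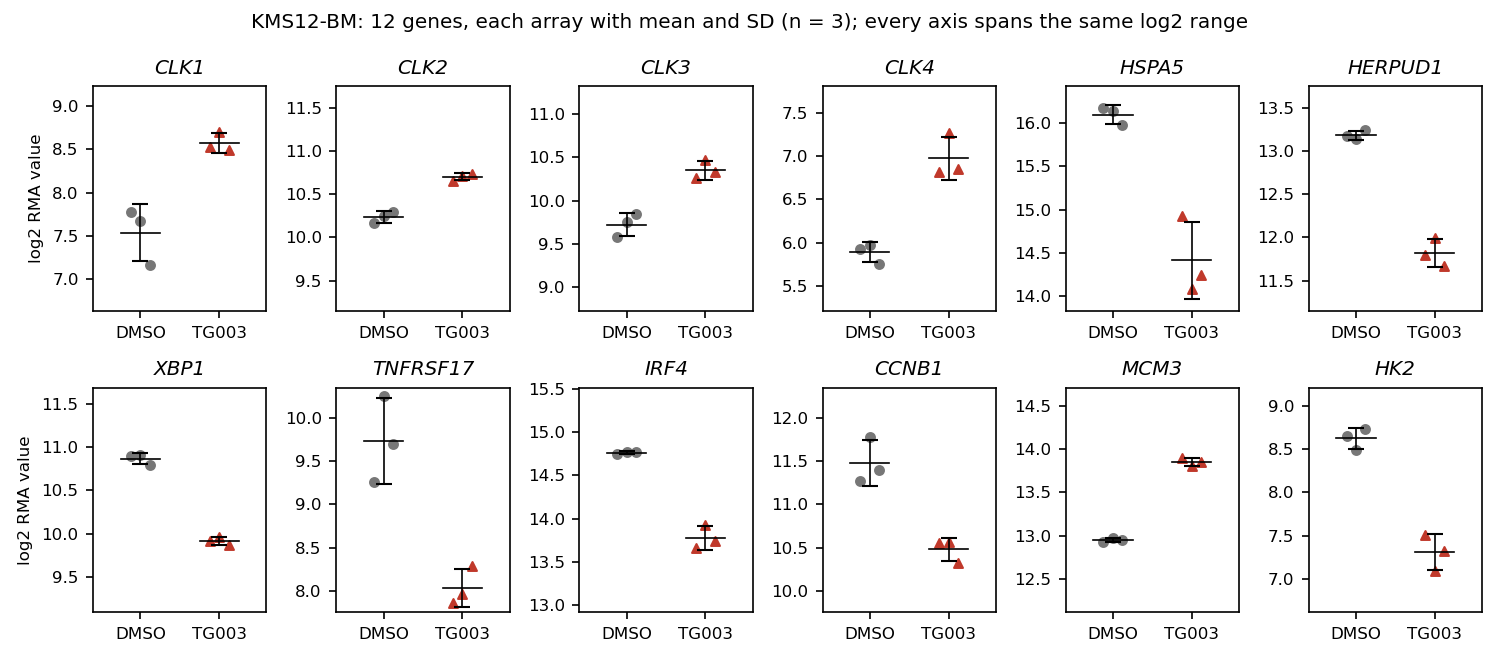
Log2 RMA values of 12 genes in KMS12-BM on each DMSO array (grey circles) and TG003 array (red triangles), with the mean and SD of the 3 arrays; every vertical axis spans the same number of log2 units. CLK1 to CLK4 and MCM3 are higher with TG003, and HSPA5, HERPUD1, XBP1, TNFRSF17, IRF4, CCNB1 and HK2 are lower, with no overlap of the groups.

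Most called chaperones of the ER were lower with TG003. HSPA5, the BiP protein that binds unfolded chains in the ER lumen, read 16.18, 16.14 and 15.97 with DMSO and 14.92, 14.08 and 14.24 with TG003. It fell by 1.68 ± 0.16, a 3.21-fold lower signal (adjusted p = 6.37e-06), and the highest TG003 array lay more than 1 log2 unit below the lowest DMSO array. Of 35 measured ER chaperones and folding enzymes, 17 fell and 3 rose, 48.6% against 6.52% of all genes and 15.4% of those above background, and 8.57% against 8.30% and 17.5%, and the median change was -0.33. HYOU1, the nucleotide exchange factor of BiP, read 13.09, 12.94 and 12.97 with DMSO and 12.18, 11.99 and 11.87 with TG003 and fell by 0.98 ± 0.10. FKBP11 (-1.01), a proline isomerase of secretory cells, PDIA4 (-0.74), a disulfide isomerase, and CALR (-0.67), the lectin chaperone calreticulin, fell too. The exceptions were FKBP7, another proline isomerase of the ER, which read 6.78, 7.07 and 6.91 with DMSO and 8.08, 8.40 and 7.78 with TG003 and rose by 1.17 ± 0.12, CREB3 (0.60) and the oxidase ERO1B (0.32).

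Among genes of the unfolded protein response and ER-associated degradation, HERPUD1, a membrane component of the degradation complex, read 13.17, 13.13 and 13.24 with DMSO and 11.80, 11.99 and 11.66 with TG003 and fell by 1.36 ± 0.12 (adjusted p = 3.39e-06). XBP1, the transcription factor that drives ER expansion and whose RNA is spliced by IRE1, read 10.90, 10.91 and 10.80 with DMSO and 9.92, 9.97 and 9.87 with TG003 and fell by 0.95 ± 0.19 (adjusted p = 0.00269). Of 29 genes of this list, 6 fell (20.7%) and 2 rose (6.9%), against 6.52% and 8.30% of all genes, the falls including DERL3 (-0.91) and the mannosidase-like EDEM1 (-0.70) and the rises its relative EDEM2 (0.66). With a replicate block 7 fell and 4 rose. In translocation and glycosylation, 5 of 28 fell (17.9%, near the 15.4% of genes above background), led by TRAM2 (-0.94) and the oligosaccharyltransferase subunit STT3B (-0.74), and DAD1 (0.46) rose. In COPII and COPI transport 5 of 32 fell (15.6%, also near that share) and 1 rose, with KDELR3 (-0.54), a receptor that returns proteins to the ER, falling the most. The transport falls numbered 0 to 2 without the third or first TG003 array or the first or second DMSO array.

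Promoters of several of these genes hold the ER stress response element (ERSE), the site of ATF6 and XBP1. The promoter of HSPA5 is shown because the gene had the largest fall of the list. It spans chr9:125241294-125241593 on the minus strand of GRCh38.p14, from 250 bases before to 50 after the gene's start, as RefSeq gives it, and the capitals mark the element, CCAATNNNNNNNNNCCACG read on either strand:
HSPA5: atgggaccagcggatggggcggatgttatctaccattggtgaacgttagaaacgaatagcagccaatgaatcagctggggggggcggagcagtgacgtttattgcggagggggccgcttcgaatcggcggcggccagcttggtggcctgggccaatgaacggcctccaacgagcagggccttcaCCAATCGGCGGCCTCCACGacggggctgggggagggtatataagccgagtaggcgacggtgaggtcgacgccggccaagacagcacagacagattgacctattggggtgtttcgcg
The exact element was found in 17 of the 15247 promoters of tested genes, 0.111%. In the ER chaperone list 5 of 32 promoters held it, and so did the promoter of XBP1. The other matches in the ER and unfolded protein response lists are shown with 5 bases on each side, on the strand that reads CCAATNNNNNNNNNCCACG:
XBP1: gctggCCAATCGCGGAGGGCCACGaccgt
CALR: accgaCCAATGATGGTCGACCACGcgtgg
CRELD2: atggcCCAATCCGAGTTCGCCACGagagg
CANX: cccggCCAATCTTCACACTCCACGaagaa
ERO1B: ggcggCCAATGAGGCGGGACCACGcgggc
They lie 66, 52, 225, 80, 151 and 243 bases before the starts of HSPA5, XBP1, CALR, CRELD2, CANX and ERO1B. The shorter ERSE-II, ATTGGNCCACG, was found in 13 promoters, 0.0853%, and HERPUD1, HYOU1, with 2 copies, and SDF2L1 hold it:
HERPUD1: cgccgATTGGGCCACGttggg
HYOU1: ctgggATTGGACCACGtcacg
HYOU1, second copy: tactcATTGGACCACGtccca
SDF2L1: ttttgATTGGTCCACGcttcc
Over the 17 promoters with the exact ERSE 5 genes fell and 3 rose, against 1167 and 1394 of the 15230 without it. Over the 13 with ERSE-II 4 fell and 0 rose, against 1168 and 1397 of 15234. Neighbouring genes that share a site are each counted. The CRELD2 match also lies in the promoter of ALG12, which rose by 0.36. SERP1 and EIF2A share another ERSE, and ZNF143 and ZNF143-AS1 share an ERSE-II. Within the ER chaperone list, 4 of the 5 genes with an exact ERSE and 12 of the 27 without one fell, with median changes of -0.39 and -0.33. A match is a description of the letters, and variants of the element were not searched.

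Several transcription factors of the plasma cell fell. IRF4, on which myeloma cells depend, read 14.75, 14.77 and 14.78 with DMSO and 13.66, 13.93 and 13.75 with TG003, with nearly no spread among the DMSO arrays, and fell by 0.99 ± 0.15 (adjusted p = 3.34e-04). POU2AF1, the B cell coactivator, read 10.31, 10.73 and 10.75 with DMSO and 9.23, 9.45 and 9.43 with TG003 and fell by 1.23 ± 0.19. PRDM1, the repressor that ends the B cell programme, fell by 0.91 ± 0.15, and TCF3, the E protein, fell by 0.73 ± 0.13. Of 26 plasma cell and B lineage transcription factors 11 fell and 0 rose, 42.3% against 6.52% of all genes, with a median of -0.29. Of the 14 above background 9 fell, 64.3% against 15.4% of all genes above it. Of the 12 plasma cell markers 7 fell and 0 rose, at a median of -0.91, and their mean level went from 9.0 to 9.05 on the DMSO arrays to 8.15 to 8.36 on the TG003 arrays. MZB1 (-0.49 ± 0.21), SSR4 (-0.25 ± 0.08) and JCHAIN (-0.27 ± 0.16) did not pass the test. In bulk RNA, fewer cells of a kind and less of an RNA per cell cannot be told apart.

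At the surface, 9 of 31 myeloma antigens fell, 29% against 6.52% of all genes, and 0 rose. TNFRSF17, the BCMA receptor that is a target of myeloma therapy, read 9.25, 10.25 and 9.70 with DMSO and 7.85, 7.96 and 8.28 with TG003 and fell by 1.70 ± 0.26, a 3.25-fold lower signal (adjusted p = 3.24e-04). CD38, an ectoenzyme and antibody target, read 11.86, 10.94 and 11.84 with DMSO and 10.55, 9.89 and 10.30 with TG003 and fell by 1.30 ± 0.23. The DMSO arrays of both genes differed among themselves by about 1 log2 unit, and the groups still did not overlap. CXCR4, the bone marrow homing receptor, fell by 0.79 ± 0.13, and IL21R (-0.83) and IL6R (-0.63), a pair of cytokine receptors, fell. Of the 6 measured immunoglobulin and J chain genes none lay above the background reference and none was called.

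Signal carriers downstream of the B cell receptor fell as well, 8 of 22 (36.4% against 6.52% of all genes) with 0 rises. Of the 13 above background 8 fell, 61.5% against 15.4% of all genes above it. BTK, the kinase inhibited by ibrutinib, read 12.28, 12.12 and 11.96 with DMSO and 11.12, 10.69 and 11.12 with TG003 and fell by 1.15 ± 0.15 (adjusted p = 1.06e-04). The exchange factor VAV1 (-0.88), the linker BLNK (-0.87) and the phosphatase PTPN6 (-0.72) fell with PLCG2. In antigen presentation 4 of 24 genes fell (16.7%), among them the peptide transporter TAP1 (-0.78) and the immunoproteasome subunit PSMB8 (-0.66), and HLA-E, a ligand of NK cell receptors, rose by 0.71 ± 0.15. Of genes of cytokine and MAPK signalling, PIM1 (-0.99) and PIM2 (-0.71), survival kinases of myeloma, were 2 of the 5 falls among 36 (13.9%). CD68, the myeloid marker that lay above background, fell by 1.29, from 8.10 to 6.81. The marker lists of T and NK, myeloid, stromal and erythroid cells had array means of 4.18 to 4.90 in both groups, and their part in these falls was not tested.

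**Figure D3:**
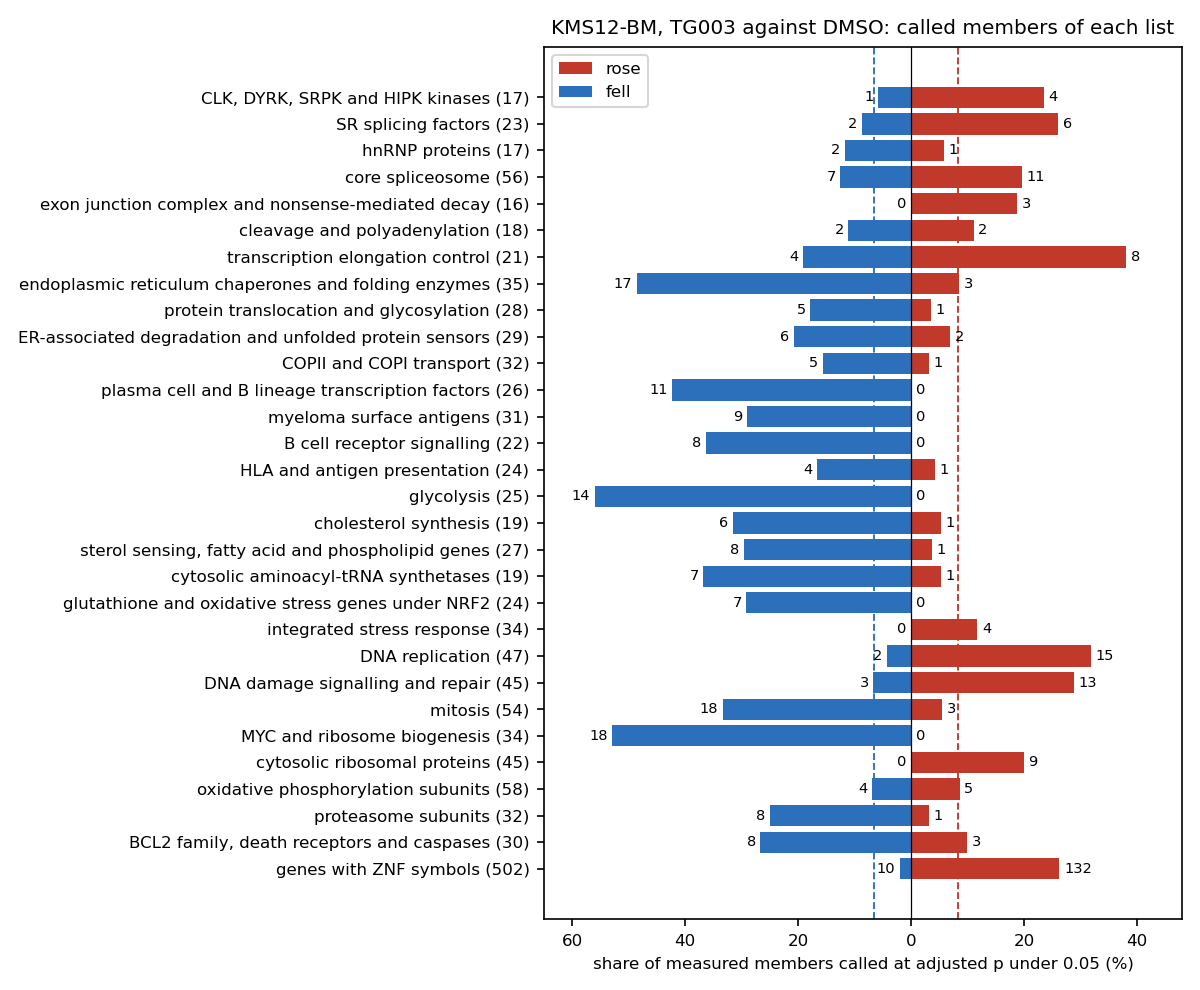
Share of the measured members (number in brackets) of 30 gene lists that rose (red, right) or fell (blue, left) at an adjusted p under 0.05 in KMS12-BM with TG003, with the number of genes beside each bar and dashed lines at the shares of all genes, 8.30% and 6.52%. Glycolysis, MYC and ribosome biogenesis, and ER chaperones reach the largest shares of falls.

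Enzymes of glycolysis fell, 14 of 25 (56% against 6.52% of all genes and 15.4% of those above background) with 0 rises and a median of -0.47. HK2, the inducible hexokinase, read 8.65, 8.49 and 8.73 with DMSO and 7.51, 7.09 and 7.32 with TG003 and fell by 1.32 ± 0.12 (adjusted p = 3.58e-06). PDK1, which switches off pyruvate dehydrogenase, read 9.37, 9.59 and 9.49 with DMSO and 8.23, 8.33 and 8.38 with TG003 and fell by 1.17 ± 0.10. The glucose transporter SLC2A1 (-0.82), the kinase PGK1 (-0.78) and the muscle-type phosphofructokinase PFKM (-0.67) fell. Of 27 hypoxia-inducible genes 3 fell (11.1%), by the most KDM3A (-0.78), a histone demethylase. Oxidative phosphorylation subunits went both ways, with 5 rises (8.6%) and 4 falls (6.9%) of 58, near the shares of all genes, and a median of 0.03. These rises numbered 1 to 3 without the first or the third array of either group. The hypoxia falls numbered 1 without the first or the third TG003 array.

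Sterol and fatty acid genes included several falls. INSIG1, which holds SREBP in the ER, read 11.01, 11.81 and 11.35 with DMSO and 9.73, 10.20 and 10.11 with TG003 and fell by 1.38 ± 0.23. In cholesterol synthesis 6 of 19 fell (31.6% against 6.52% of all genes and 15.4% of those above background), among them TM7SF2 (-1.35), HMGCS1 (-1.14) and MSMO1 (-0.93), and SC5D (0.28) rose. Of 27 genes of sterol sensing and lipids 8 fell (29.6%), with LPCAT3 (-1.33), a phospholipid acyltransferase, and ACACA (-0.83), the rate-limiting carboxylase of fatty acid synthesis, behind INSIG1.

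Few genes of the integrated stress response were called. ATF4, its central transcription factor, rose by 0.35 ± 0.08, and DDIT3, the CHOP factor it induces, lay near background at 5.62, 5.67 and 5.87 with DMSO and 6.35, 7.02 and 6.17 with TG003 and rose by 0.80 ± 0.19, a call lost in 1 of 13 alternatives. They were 2 of the 4 rises among 34 (11.8% against 8.30% of all genes and 17.5% of those above background), of which 0 fell. With a replicate block the rises were 7 and the falls 1. 7 genes of 19 cytosolic aminoacyl-tRNA synthetases fell (36.8% against 6.52% of all genes and 15.4% of those above background) and 1 rose, with IARS1 (-0.68) and KARS1 (-0.59) among the falls. Of 24 glutathione and oxidative stress genes 7 fell (29.2%) and 0 rose, as in GCLM (-0.56), a subunit of the enzyme that makes the glutathione precursor. Without the third TG003 array 4 of those 24 fell. The integrated stress response rises numbered 2 without the second TG003 array and 7 without the first. Cytosolic heat shock genes had 1 rise and 1 fall of 20, 5% each against 8.30% and 6.52% of all genes.

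DNA replication genes rose more often than they fell, and mitosis genes fell more often than they rose. MCM3, a subunit of the replicative helicase, read 12.92, 12.97 and 12.95 with DMSO and 13.90, 13.80 and 13.85 with TG003, with a spread within each group under 0.11, and rose by 0.90 ± 0.11 (adjusted p = 6.04e-05). CDC7, the kinase that fires origins, read 9.24, 9.46 and 8.93 with DMSO and 10.03, 10.40 and 10.07 with TG003 and rose by 0.96 ± 0.16, and CHAF1B, a histone chaperone at the fork, rose by 0.90 ± 0.16. Of 47 DNA replication genes 15 rose and 2 fell, 31.9% and 4.26%, against 17.5% and 15.4% of genes above background, with a median of 0.25. The falls were RRM2 (-0.54), a ribonucleotide reductase subunit, and DBF4 (-0.31), the activator of CDC7. DNA repair genes rose in 13 of 45 (28.9%) and fell in 3, with FANCL (1.05), the Fanconi ubiquitin ligase, PARP2 (0.84) and BRCA1 (0.80) among the largest rises. BRCA1 shares its locus with NBR2, which was also called. Without the third TG003 array 9 replication genes rose, and 7 or 8 repair genes rose without the first or the third DMSO or the second TG003 array.

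Mitosis genes fell in 18 of 54 (33.3% against 6.52% of all genes and 15.4% of those above background) and rose in 3, with a median of -0.24. CCNB1, the mitotic cyclin, read 11.27, 11.78 and 11.40 with DMSO and 10.56, 10.56 and 10.32 with TG003 and fell by 1.0 ± 0.13 (adjusted p = 7.78e-05). PLK1, the Polo kinase, read 15.04, 14.97 and 15.24 with DMSO and 14.12, 14.00 and 14.15 with TG003 and fell by 0.99 ± 0.12, and HMMR, a spindle protein, fell by 0.99 ± 0.12. KIF14 (-0.95), a kinesin of cytokinesis, and CCNA2 (-0.82), the cyclin of S phase and G2, fell. SGO1, which protects centromeric cohesion, read 11.67, 11.56 and 11.42 with DMSO and 12.40, 12.63 and 12.41 with TG003 and rose by 0.93 ± 0.11, and TTK (0.31) and NUSAP1 (0.27) were the other rises. SGO1 overlaps an antisense gene, and the labels do not say how the array treats strand. Of 26 G1 regulators 4 rose (15.4% against 8.30% of all genes), such as E2F8 (0.76). In the same list 2 fell (7.7% against 6.52%), such as E2F5 (-0.52). Its rises numbered 1 or 2 without the second or the third DMSO or the first or the third TG003 array.

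Genes of late cell cycle stages share a promoter element, the cell cycle genes homology region (CHR), TTTGAA, bound by the DREAM complex. On either strand it was present in 12.5% of the 15247 promoters, in 30 of 46 of mitosis genes and in 1 of 41 of DNA replication genes. Matches at 29, 55 and -13 bases before the starts of 2 genes that fell and 1 that rose are shown, with the element in capitals:
PLK1: ccgcgTTTGAAttcgg
KIF23: gcccgTTTGAAatgcg
NUSAP1: agggaTTTGAAccgcg
Of the 30 mitosis genes with the element 11 fell and 1 rose, at a median of -0.31, and of the 16 without it 5 fell and 1 rose, at a median of -0.27. Over all promoters with the element 107 of 1913 genes fell and 155 rose, at a median of -0.02. Of the 13334 genes without it 1065 fell and 1242 rose, at a median of -0.01. KIF23, a kinesin of the central spindle, fell by 0.78.

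MYC and the genes of ribosome biogenesis fell in 18 of 34 (52.9% against 6.52% of all genes and 15.4% of those above background) with 0 rises, at a median of -0.41. MYC read 15.61, 15.72 and 15.55 with DMSO and 15.03, 15.11 and 15.04 with TG003 and fell by 0.56 ± 0.12 (adjusted p = 0.00476). POLR1B, the second largest subunit of RNA polymerase I, read 9.85, 9.86 and 9.68 with DMSO and 8.96, 8.95 and 8.99 with TG003 and fell by 0.83 ± 0.06 (adjusted p = 5.72e-07). ODC1 (-0.80), which starts polyamine synthesis, WDR12 (-0.79), WDR43 (-0.72) and the polymerase I factor RRN3 (-0.72) fell. Cytosolic ribosomal protein genes, which have many near-identical pseudogenes, rose in 9 of 45 with 0 falls, a share of rises near the 17.5% of genes above background, at a median of 0.20, and RPL31 (0.73) by the most. Proteasome genes fell in 8 of 32 (25% against 15.4% of genes above background), among them PSME4 (-0.93), a proteasome activator, and PSMA3 (-0.58), while NFE2L1, the factor that induces them, rose by 0.55 ± 0.13. The ribosomal rises numbered 3 or 4 without the first or the third array of either group, and the proteasome falls 4 without the second TG003 and 5 without the first DMSO array.

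**Figure D4:**
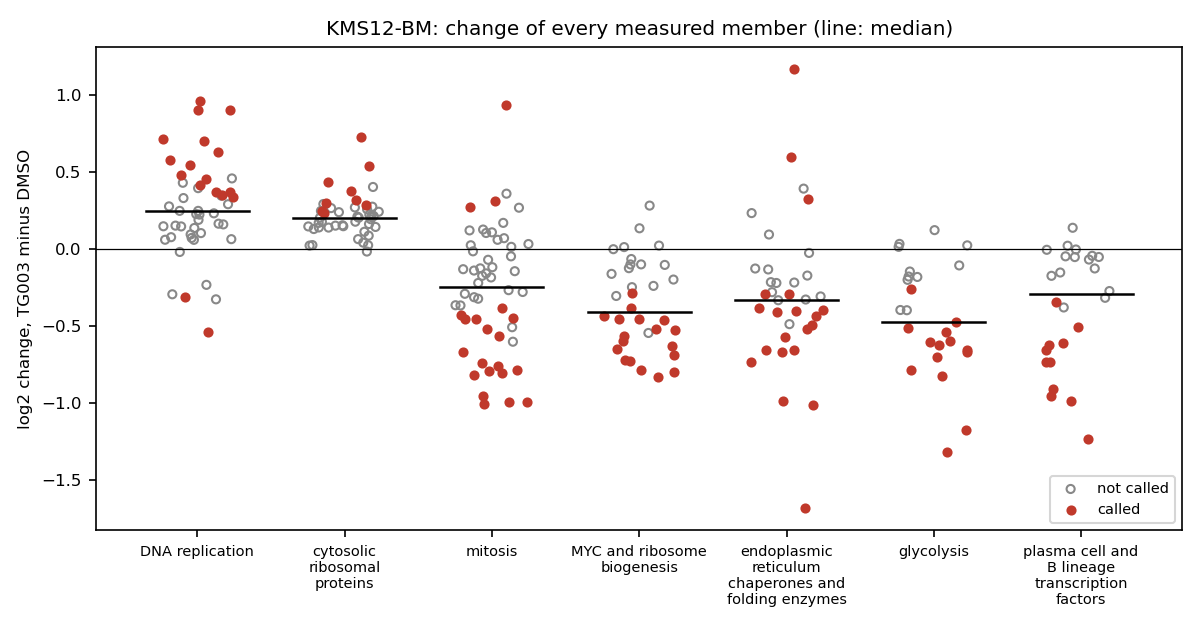
Log2 change, TG003 minus DMSO, of every measured member of 7 gene lists in KMS12-BM, with called genes filled, others open, and a line at each list's median. DNA replication and ribosomal protein genes lie mostly above 0, and the other 5 lists mostly below it.

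Cell death genes fell in 8 of 30 (26.7%) and rose in 3 (10%), against 6.52% and 8.30% of all genes and 15.4% and 17.5% of those above background. TNFRSF1A, the TNF receptor, fell by 0.84 ± 0.13, CASP8 (-0.63), the caspase of death receptors, fell, and so did BAK1 (-0.54) and BMF (-0.56), which promote apoptosis. BCL2, which opposes them, fell by 0.66 ± 0.17, a call lost in 3 of 13 alternatives.

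Zinc finger genes mostly rose where they were called. Of 502 genes with ZNF symbols, many of them KRAB repressors of transposable elements, 132 rose and 10 fell, 26.3% and 1.99% against 8.30% and 6.52% of all genes, at a median of 0.14. ZNF473, which takes part in histone RNA processing, read 8.55, 8.68 and 8.53 with DMSO and 9.40, 10.17 and 9.51 with TG003 and rose by 1.11 ± 0.17. ZNF713 (1.11) and ZNF391 (1.06) rose too. Without the third DMSO array 64 ZNF genes rose, and without the second TG003 array 68. Zinc finger genes share similar sequence, so signal from relatives may be included. Of 838 antisense and divergent transcripts 83 rose, 9.9% and near the 8.30% of all genes, and 9 fell, 1.07%, with TMCC1-DT (1.47) and ZBED5-AS1 (1.22) among the rises. Only 51 of these 838 lay above the background reference. Of those, 31 rose (60.8%) and 4 fell (7.84%), against 17.5% and 15.4% of all genes above it. A gene counts as above it when either group mean is, so a rise can itself bring a gene in. RefSeq long noncoding RNAs rose in 132 of 1840 (7.17%) and fell in 16 (0.87%). Of the 114 above the reference, counted in the same way, 59 rose (51.8%) and 7 fell (6.14%). Protein-coding genes rose in 1526 (8.93%) and fell in 1408 (8.24%) of 17082. These classes were chosen after their values had been seen.

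JJN3 received the same dose of TG003, and the difference between the lines in their change was tested. In JJN3 3.74% of genes rose and 5.64% fell. The change was higher in KMS12-BM for 594 genes, 2.64%, and lower for 432, 1.92%. For part of these genes the other line has little of the RNA. CD27 (difference -2.04 ± 0.21, adjusted p = 9.54e-05), SLA2 (-2.58), HES1 (-2.03) and SEPTIN3 (-1.99) fell in KMS12-BM, while their JJN3 means with DMSO were 5.43, 4.36, 5.23 and 6.23, all below the background reference. CCL2 (3.37), AMPD1 (3.30), CCL3 (2.69) and IGF1 (1.92) fell in JJN3, with changes of -3.47, -3.75, -3.40 and -2.05, and their KMS12-BM means with DMSO, 4.88 to 5.75, lay below that reference.

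These 8 genes were named for the size of the difference. Some genes expressed in both lines also differed. HSPA5 changed by -0.77 ± 0.16 in JJN3, less than in KMS12-BM (difference -0.91 ± 0.23, adjusted p = 0.0354). The HSPA5 line difference lost its call when any of 9 of the 12 arrays was left out, at -0.75 without the second KMS12-BM TG003 array. ZMYND8 changed by -0.97 there (difference -1.21, adjusted p = 0.0021), ZNF512 by 0.58 (difference 1.12, adjusted p = 0.00143) and U2AF2 by 0.03 (difference -0.84, adjusted p = 0.00237). Among the CLK genes the lines differed in CLK3, with a JJN3 change of -0.09 ± 0.09 (difference 0.72 ± 0.12, adjusted p = 0.00341). CLK1, CLK2 and CLK4 changed by 1.48, 0.88 and 1.12 in JJN3, and the differences of -0.44 ± 0.22, -0.42 ± 0.14 and -0.03 ± 0.19 did not pass the test. Neither did those of TNFRSF17 (0.39 ± 0.37), XBP1 (-0.66 ± 0.27), IRF4 (-0.21 ± 0.21) and MYC (-0.42 ± 0.17).

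In MYC and ribosome biogenesis, 11 of 34 genes had a lower change in KMS12-BM, against 1.92% of all genes, and the JJN3 median was -0.0046. POLR1B changed by -0.02 in JJN3 (difference -0.82 ± 0.09, adjusted p = 1.10e-04) and ODC1 by 0.28 (difference -1.07 ± 0.14, adjusted p = 5.66e-04). Cholesterol synthesis went the other way, with a higher change in KMS12-BM for 7 of 19, against 2.64% of all genes. It had 12 falls in JJN3, where 5.64% of all genes fell. HMGCS1 changed by -2.64 ± 0.19 in JJN3, more than in KMS12-BM (difference 1.50 ± 0.27, adjusted p = 0.00524). In glycolysis, JJN3 had 15 falls and a median of -0.53, and 3 of 25 genes differed. In mitosis it had 22 falls, and 3 of 54 differed. DNA replication genes had 1 rise and 3 falls in JJN3, at a median of 0.14, against 0.25 in KMS12-BM. Only 3 of 47 passed the test of the difference, MCM3 (0.72 ± 0.16, adjusted p = 0.0174) and POLD3 (0.63 ± 0.15, adjusted p = 0.0222) among them. The POLD3 line difference lost its call without any of 5 single arrays, at 0.57 without the second KMS12-BM TG003 array. The lines differ in serum as well as in origin, and these cannot be told apart.

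**Figure D5:**
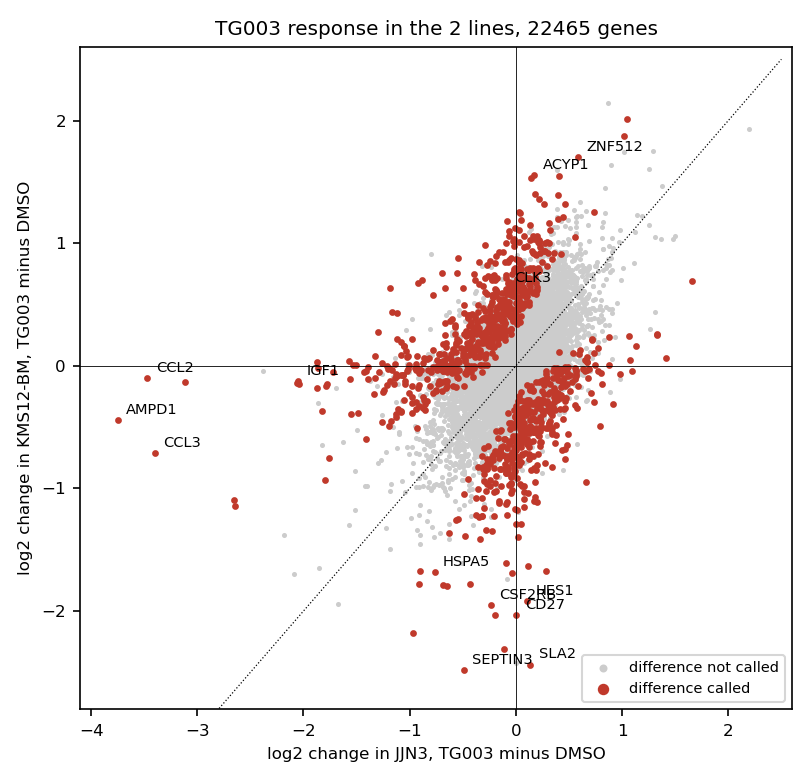
Change with TG003 in KMS12-BM (vertical) against that in JJN3 (horizontal), in log2 units, for 22465 genes, with the 1026 whose change differed between the lines at an adjusted p under 0.05 in red and a dotted line where both changes are equal. SLA2, SEPTIN3 and CD27 lie low near the vertical axis, and CCL2 and AMPD1 lie far left near the horizontal one.

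Amiloride, a diuretic that blocks epithelial sodium channels, was given to KMS12-BM at 0.1 mM against 0.4 mM of TG003, so the drugs are not compared at matched doses. Set against TG003, 15.8% of genes were higher with amiloride and 14.0% were lower. CLK1 was 0.76 ± 0.16 higher with amiloride (adjusted p = 0.00117) and CLK3 0.78 ± 0.09 higher (adjusted p = 3.01e-06), whereas CLK2 differed by -0.57 ± 0.10 (adjusted p = 2.10e-04) and CLK4 by -0.26 ± 0.13, which did not pass the test. DNA replication genes were lower with amiloride in 35 of 47 and higher in 2, at a median difference of -1.03. Plasma cell and B lineage transcription factors were higher in 15 of 26 and lower in 1, with IRF4 1.77 ± 0.15 higher (adjusted p = 1.57e-07). HSPA5 differed by -0.72 ± 0.16 (adjusted p = 0.00258). One amiloride array names JJN3 in its cell line field, but its title and source name KMS12-BM. The CCND1 values of the 3 amiloride arrays, 14.84 to 15.11, are in the range of KMS12-BM, and without that array 5896 genes were called in place of 6686.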

How the data were processed

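RNA of KMS12-BM and JJN3 cells was measured on 18 Affymetrix whole-transcript arrays, 3 for each of 6 groups. The series text names poly A+ RNA, and the labels name total RNA. The deposited values are log2 expression per probe set, made by the authors with RMA, per the submitters' processing notes; its version, the genome build and the annotation are not given in the sources used here. Of 70523 probe sets, 23781 have 1 symbol in the platform annotation, 1543 have several and 45199 are not listed, and a gene stands for its probe set of highest mean over all arrays, which gave 22465 genes, 479 of them with several probe sets.

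A limma fit (version 3.58.1, R 4.3.3) of 6 group means on all 18 arrays, with 12 residual degrees of freedom, gave moderated two-sided p-values, adjusted by Benjamini-Hochberg over all genes, with a threshold of 0.05. All groups share 1 estimate of the spread. Array precision is limited by the 3 arrays of a group. The serial codes in the titles run in 3 sets, each with 1 array of all 6 groups in the same order. They number the arrays of each group, and what a set stands for is not in the labels. These numbers were taken to pair DMSO and TG003 arrays because the deviations of same-numbered KMS12-BM arrays correlated at 0.16, 0.42 and 0.36. Each lay above the highest correlation with another number (-0.07, -0.19 and 0.06). The deviations within a group cancel out, so positive same-number values push the others down. That contrast is therefore partly fixed in advance, and the labels do not state a pairing. The fit without the block is the one reported. With it, 3759 genes were called.

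Alternatives were other scalings, the block, a dim-gene filter, an intensity trend, the mean of probe sets, only the groups compared, each array left out, and a test against 1.2-fold; a fit of all probe sets was added after seeing the data. The text names, for KMS12-BM, the 15 largest rises and falls above background whose groups did not overlap, up to 6 called genes of largest change per list, the 6 largest differences between lines each way, the 5 smallest p each way, and 10 genes chosen by name. CREB3, ERO1B, SC5D, RRM2, DBF4, TTK, NUSAP1, KIF23, HEATR6, ALG12 and the promoter examples were picked after their values were seen. The comparison and the 53 lists (1542 members, 1336 measured) were chosen with earlier results of these data known. Promoter sequences are from RefSeq (GRCh38.p14).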

Additional observations from a re-analysis of the deposited data

Results flagged for a closer look

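The change with TG003 differed between KMS12-BM and JJN3, by limma's test of the difference with an adjusted p under 0.05, for 34 of the 53 genes looked at singly, against 2.64% of all genes with a higher and 1.92% with a lower change in KMS12-BM. Of those genes 12 were named for the size of that difference and most others for a large change in KMS12-BM, so their count is no measure of how often the lines differ. Values are the KMS12-BM change minus the JJN3 change on the log2 scale.

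For genes with a lower change in KMS12-BM the differences were -2.58 for SLA2, -2.20 for RNA5SP157, -2.04 for CD27, -2.03 for HES1, -1.99 for SEPTIN3, -1.96 for TMT1B, a methyltransferase-like protein, -1.84 for ACY3, -1.72 for CSF2RB, -1.35 for SEPTIN1, -1.21 for ZMYND8, -1.15 for ITGB7, -1.10 for PLCG2, -1.07 for ODC1, -0.84 for U2AF2, -0.82 for POLR1B, -0.91 for HSPA5 and -0.87 for SCFD2. TMT1B fell by 1.67 ± 0.15 in KMS12-BM. The differences of HSPA5, ITGB7, BEND6, C11orf71 and POLD3 lost their call in at least 1 alternative.

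For genes that rose in KMS12-BM, with a higher change there than in JJN3, they were 1.39 for ACYP1, 1.23 for LINC00470, 1.14 for NIPSNAP3A, 1.12 for ZNF512, 1.0 for FRG1HP, 0.97 for BEND6, 0.85 for C11orf71, 0.72 for CLK3, 0.72 for MCM3 and 0.63 for POLD3. HMGCS1, which fell in both lines, had a difference of 1.50. For genes that fell in JJN3 and were not called in KMS12-BM they were 3.37 for CCL2, 3.30 for AMPD1, 2.98 for HBBP1, 2.69 for CCL3, 1.92 for GPR15LG and 1.92 for IGF1.

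Probe sets without a single gene symbol also responded. In a fit of all probe sets, added after seeing the data, 2774 of 46556 such probe sets were called in KMS12-BM, 5.96%, with 2057 rises and 717 falls, and 352 and 156 of these changes were of at least 1 log2 unit. Of the called ones 1201 rises and 498 falls lay above the background reference. The named genes had 1492 rises and 1190 falls among 22465 in that fit.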

How the results depend on the processing

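In KMS12-BM the number of called genes was 2760 to 3759 over 7 alternatives (3052 with arrays centred, 3631 with a further quantile normalization), 2535 to 2931 with each array left out, and 776 when tested against 1.2-fold, against 3330. In JJN3 it was 2107, and 1465 to 1841 with an array left out. The difference between the lines was called for 1026 genes, and for 677 to 992 with an array left out, the lowest being 677 without the second JJN3 DMSO array and 679 without the first KMS12-BM DMSO array, each of which leaves fewer samples. Amiloride against TG003 gave 6686, and 5835 to 6434. Counts out of 13 alternatives, here and above, leave out the test against 1.2-fold. One of the 13, the dim-gene filter, tested only 269 of the 288 named genes. Of 271 named and called genes 195 stayed called in each of the 13 alternatives in which they were tested, and 76 lost the call in at least 1. Not all of these are marked where they are named. TP53INP1 lost the call in 5 alternatives, KDELR3 in 3 and HPRT1 in 2, for example. With the replicate block, CSTF2 (adjusted p = 0.0502), KDM4B (0.0562), RELA (0.0603) and SNHG8 (0.0590) lost it, and no other named gene changed call. The sign turned for HNRNPR with the mean of its probe sets (-0.019), the one called gene to do so, and the cause was not tested. With each array left out it also turned for uncalled changes: CCL2 ranged from -0.18 to 0.034, the latter without the third TG003 array; CCND2 from -0.041 without the third DMSO array to 0.14 (-0.023 without the first TG003 array); and HBBP1 from -0.26 to 0.0055 without the third DMSO array. The CCND1 line difference ranged from -0.32 to 0.0084 without the second JJN3 DMSO array. The CLK4 line difference ranged from -0.18 to 0.12 without the second JJN3 TG003 array, and was 0.013, 0.050 and 0.029 without the second KMS12-BM DMSO, the first KMS12-BM TG003 and the third KMS12-BM TG003 array. Genes near background, such as CLK4, DDIT3 and SLC10A5, have compressed values. Besides MIR4737, BRCA1 and SGO1, other named genes overlap a called gene. They include SMG5 (TMEM79), PCF11 (ANKRD42-DT), FANCL (VRK2), DERL3 (SMARCB1), ITGB7 (ZNF740), RRN3 (PDXDC1) and SUPT4H1 (TSPOAP1-AS1). Whether such pairs share signal was not tested.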

Other observations

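Receptors and regulators outside the groups described so far also fell. Counts in this section are to be read against the 8.30% of all genes that rose and the 6.52% that fell. Of genes above background, 17.5% rose and 15.4% fell. CCR2, a chemokine receptor, fell by 1.65 ± 0.15 and read 6.65, 6.74 and 6.35 with DMSO and 5.04, 4.75 and 4.99 with TG003, all below the background reference. CCR10, the receptor that guides plasma cells to mucosa, fell by 1.14 ± 0.21. The chemokine and receptor list had 6 falls (23.1%) and 0 rises of 26, CXCL16 (-0.96) and CXCR3 (-0.96) included. Only 3 of those 26 genes lay above the background reference. In the clock and casein kinase 1 list NR1D1 (-0.96), a repressor of the circadian loop, BHLHE41 (-0.94) and DBP (-0.59) fell, and CSNK1G1 (0.39) rose, of 23. TRIB1, a pseudokinase, fell by 1.19 ± 0.18, 1 of 2 falls beside 1 rise among 26 FOXO and starvation genes, and LRP5, a WNT coreceptor, fell by 0.88 ± 0.16, 1 of 2 falls beside 3 rises of 26.

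Genes of p53 signalling gave 4 rises, CCNG1 (0.80) the largest, and 4 falls of 23, TP53INP1 (-0.72) the largest. Those shares are 17.4% each, and of the 14 members above background 21.4% rose and 21.4% fell. The p53 falls numbered 1 or 2 without the second or the third DMSO or the first or the third TG003 array. In glycogen metabolism PPP1R3E (1.76) and PHKG2 (0.41) rose, the latter call being lost in 7 of 13 alternatives. Of 23 genes 4 fell, led by PYGB (-0.88), the brain-type phosphorylase. NF-kB genes had 4 rises (13.3%) and 1 fall (3.3%) of 30, with 1 or 2 rises when any 1 array but the third DMSO array was left out, and CD83 (0.62), a surface marker of activated cells, the largest. Histone genes, which are near-identical, had 3 rises and 2 falls of 25. Interferon genes had 2 and 1 of 28, autophagy and lysosome genes 4 and 3 of 35, with BECN1 (0.71) the largest, and AHR pathway genes 0 and 3 of 12. None of the called interferon and AHR genes lay above the background reference. Among 11 reference genes often used to normalize assays, 4 fell: PGK1 (-0.78), TBP (-0.65), HPRT1 (-0.48) and ACTB (-0.29). Of 3 snoRNA host RNAs EPB41L4A-AS1 (0.80) and SNHG8 (0.56) rose, and 1 did when any 1 array but the second DMSO array was left out.

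Among genes above background, the share that fell was 22.1% in the fifth of longest genomic span, from 86.5 to 1227 kb, and 13.3% in the fifth of shortest span, up to 11.8 kb, while 15.1% and 12.7% rose. In the fifth of highest level 13.7% rose and 16.9% fell, and in the fifth of lowest level 18.8% and 15.6%.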
